A study of Rattus norvegicus with 20 samples.

Results

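The comparison set lungs of rats with caecal ligation and puncture and vagus nerve stimulation (CLP+VNS) against lungs of rats with caecal ligation and puncture alone (CLP), at the level of genes. It used 10 of the 20 lung RNA-seq libraries of the study, chosen by their treatment label, with 5 libraries a side. CLP+VNS held replicates 1, 3, 5, 8 and 11, from rats in which CLP had induced acute respiratory distress syndrome and the right vagus nerve was stimulated at the neck. CLP held replicates 1, 3, 4, 5 and 6, from rats with the same injury and no stimulation. The other 10 libraries were Sham+VNS and Sham, in which the abdomen was opened and the caecum handled without ligation or puncture, with and without right cervical stimulation. The labels give no strain, age, sex, stimulation setting or time between surgery and tissue collection, and they do not say whether the unstimulated rats had a dummy electrode. Replicates are separate samples by their labels, so p-values measure the spread between these samples.

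In caecal ligation and puncture, gut bacteria leak into the abdomen, and the systemic infection that follows injures the lung through leukocyte entry, leak of the capillary wall and release of cytokines. The vagus nerve limits cytokine release in several models of systemic inflammation through a reflex described as the cholinergic anti-inflammatory pathway. In that scheme acetylcholine acts on macrophages through the α7 nicotinic receptor, encoded by Chrna7, with Jak2 and Stat3 downstream and NF-kappaB activity reduced. The vagus also carries sensory and motor fibres of the airways, some of which release neuropeptides such as the calcitonin gene-related peptide encoded by Calca.

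Total estimated counts per library ran from 13729654 to 14275406 in CLP+VNS and from 13806220 to 14327215 in CLP, and no 2 libraries held identical values. A gene's level is its CPM, the count scaled to the TMM-corrected total of its library. The lung labels were matched by Sftpc, the surfactant protein C gene of alveolar type 2 cells, at 10960.0 to 13917 CPM in CLP+VNS and 13272 to 13979.7 CPM in CLP. Sham replicate 1, which enters the common estimate of the spread, stood more than 1 log2 unit outside the other 4 Sham libraries on 301 genes, the highest number among the 20 libraries.

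CLP+VNS replicate 1 stood closer to the CLP libraries than to its own group over the genes that separated the other libraries. To place each library, the model was fitted without it, the 300 genes with the lowest p between the remaining CLP+VNS and CLP libraries were taken, and its log2 CPM was set against both group means. CLP+VNS replicate 1 was nearer to the mean of the other CLP+VNS libraries on 40 of 300 genes. The other CLP+VNS libraries were nearer to their own group on 232 (replicate 3), 250 (replicate 5), 206 (replicate 8) and 156 (replicate 11) of 300 genes, and the CLP libraries on 135 (replicate 3) to 255 (replicate 5). Its median distance from the CLP mean, towards CLP+VNS, was 0.01 log2 units, against a median gap of 0.47 between the groups. On the first principal component of the 10 libraries, with 23.9% of the variance of the 1000 most variable genes, it lay at 11.0. The other CLP+VNS libraries lay at -22.6, -11.1, -12.0 and -14.0, and the CLP libraries at 9.69, -5.13, 13.6, 14.5 and 16.0.

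On several other measures CLP+VNS replicate 1 also lay outside the range of the other 9 libraries. Its total of 13729654 counts was the lowest of the 10. Its median absolute log2 difference from the mean of the rest of its group was 0.140, against 0.103 to 0.118 for the other CLP+VNS libraries and 0.0987 to 0.124 for CLP. On the third principal component it lay at -21.4, with the other 9 libraries at -6.43 to 16.9. Its Spearman correlation across genes with the other CLP+VNS libraries was 0.984 to 0.988. CLP+VNS replicate 3 had the same lowest value, so by that value replicate 1 did not lie outside the range. CLP+VNS replicate 1 lay more than 1 log2 unit above or below all 4 other CLP+VNS libraries on 76 genes (22 above and 54 below). The counts were 62, 19, 25 and 69 genes for CLP+VNS replicates 3, 5, 8 and 11 and 24 to 54 genes for the CLP libraries. The quality weight that limma-voom gave it was 0.672, the lowest of the 10, with 0.877 to 1.56 for the other 9. What sets this library apart was not tested. The labels give no measure of how well the nerve was stimulated in each rat, and whether this library carries its right label was not tested, so the calls below are given with it and without it. A log2 change printed with no mention of this library comes from the fit with all libraries.

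**Figure D1:**
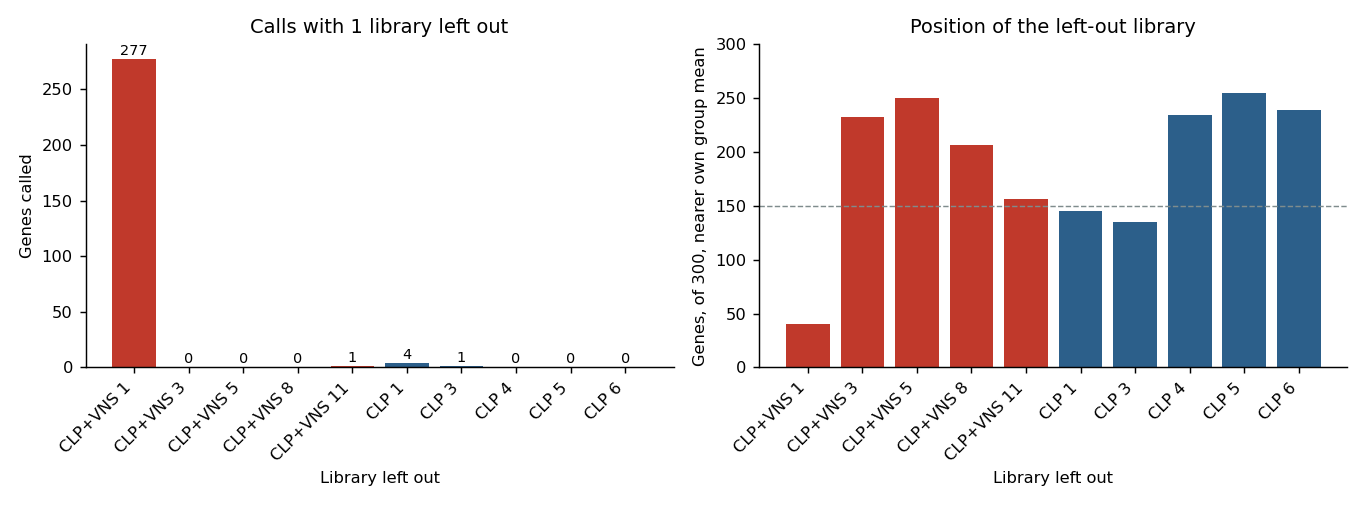
Left, number of genes called between CLP+VNS and CLP (adjusted p under 0.05) when the library named on the x axis was left out. Right, number of 300 genes, chosen without that library, on which it lay nearer to the mean of its own group (dashed line at 150). Bars are red for CLP+VNS and blue for CLP. Without CLP+VNS replicate 1 the fit called 277 genes, and that library was nearer to its own group on 40 of 300 genes.

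With all libraries, 4 of 14794 tested genes were called at an adjusted p under 0.05 (0.0270%), all lower in CLP+VNS, and none was higher. The 4 were Heatr6, Nckap1l, Kmt5a and Tacc3, each at an adjusted p of 0.0421 from edgeR's quasi-likelihood test with Benjamini-Hochberg adjustment. At an adjusted p under 0.1 there were 7 genes. At an unadjusted p under 0.05, 987 genes (6.67%) were lower and 940 (6.35%) were higher, and the median log2 change over all tested genes was 0.00. The log2 change was negative for 48.6% of tested genes. Members of a gene list may vary together, so the list counts below are not independent. The count of calls depended on the tool: on the same libraries DESeq2 called 144 genes and limma-voom with sample quality weights 175, while edgeR called 0 with library totals only or with the 10 CLP-operated libraries alone. The 5 CLP+VNS libraries lay entirely below the 5 CLP libraries for 168 genes (1.14%) and entirely above them for 166 genes (1.12%). By comparison, the same fit called 0 genes in Sham+VNS against Sham and 0 genes for the interaction, the difference between the stimulation effects in CLP-operated and sham-operated rats.

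Heatr6 (gene identifier 497972), which encodes a protein with HEAT repeats, stood at 31.2, 25.0, 24.1, 28.4 and 28.2 CPM in CLP+VNS and at 36.7, 42.0, 36.2, 41.5 and 44.8 CPM in CLP. Every CLP+VNS library lay below every CLP library, with replicate 1 the highest of its group. The log2 change was -0.55 ± 0.09 (SE), and -0.61 without CLP+VNS replicate 1 (adjusted p 0.00510). Nckap1l (315348), also named Hem1, is the blood cell form of a subunit of the WAVE complex, which drives actin branching in leukocytes. It stood at 55.7, 45.5, 42.6, 49.9 and 52.8 CPM in CLP+VNS and at 62.1, 73.6, 70.7, 69.6 and 73.2 CPM in CLP, again with no overlap. The log2 change was -0.50 ± 0.08, and -0.55 without CLP+VNS replicate 1 (adjusted p 0.00534).

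Kmt5a (689820), the histone methyltransferase also known as Set8, stood at 85.6, 94.8, 85.0, 93.1 and 84.2 CPM in CLP+VNS and at 122, 101, 110, 116 and 115 CPM in CLP. The groups did not overlap, and CLP+VNS replicate 1 lay in the middle of its group. The log2 change was -0.35 ± 0.06, and -0.34 without that library (adjusted p 0.0125). Tacc3 (360962), a protein of the mitotic spindle, stood at 15.2, 16.4, 11.8, 13.0 and 15.8 CPM in CLP+VNS and at 18.8, 26.9, 26.8, 22.9 and 24.0 CPM in CLP. Its highest CLP+VNS library lay below its lowest CLP library, and the log2 change was -0.72 ± 0.12 (-0.75 without CLP+VNS replicate 1, adjusted p 0.0124).

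In the sham-operated lungs the same genes showed no called difference with stimulation. The Sham+VNS and Sham means were 23.0 ± 2.18 and 25.8 ± 3.07 CPM for Heatr6, 46.7 ± 5.22 and 47.9 ± 4.10 CPM for Nckap1l, 89.0 ± 6.51 and 94.5 ± 5.44 CPM for Kmt5a, and 13.3 ± 1.76 and 13.2 ± 1.91 CPM for Tacc3 (SD, n = 5 each). In CLP against Sham, which shares the CLP libraries with the comparison above, the log2 changes were 0.64, 0.54, 0.25 and 0.86, all called. The test of the difference between the stimulation effects gave log2 values of -0.39, -0.46, -0.26 and -0.74, with adjusted p from 0.50 (Tacc3) to 0.512 (Heatr6 and Kmt5a). All 4 calls were lost when any of CLP+VNS replicates 3, 5, 8 or 11 or CLP replicates 4, 5 or 6 was left out, while the log2 changes kept their sign in every such fit. Without CLP replicate 1 only the Kmt5a call was lost, at an adjusted p of 0.0846, and without CLP replicate 3 only Kmt5a was called. Over these fits the log2 change ran from -0.61 to -0.51 for Heatr6, -0.55 to -0.46 for Nckap1l, -0.39 to -0.33 for Kmt5a and -0.80 to -0.66 for Tacc3, and the adjusted p reached 0.142 for the first 3 and 0.149 for Tacc3.

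**Figure D2:**
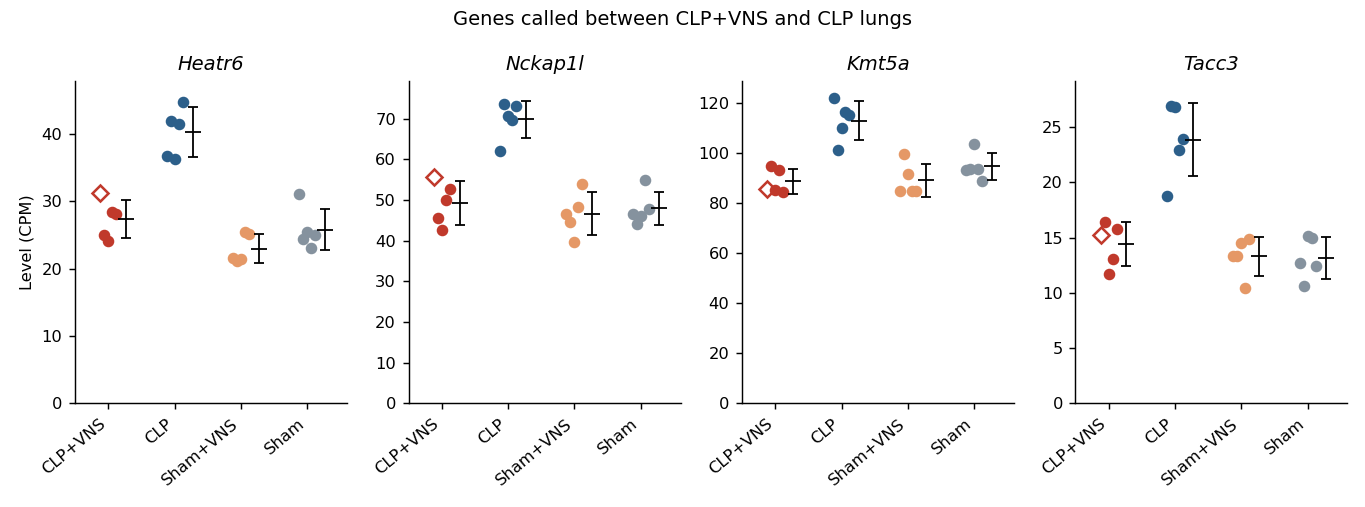
Levels of the 4 called genes in CPM (y axis, linear from 0) in the 5 libraries of each group. Points are libraries, the open diamond is CLP+VNS replicate 1, and the black mark with bars is the mean ± SD. In each panel the CLP+VNS libraries lie below the CLP libraries; for Heatr6 the highest CLP+VNS library is at 31.2 CPM and the lowest CLP library at 36.2 CPM.

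The deposited transcript table gave the same genes in TPM, a level per length. For Nckap1l, 1 transcript (XM_008765753) held 99.6% of the gene's TPM, at 15.4 ± 1.62 TPM in CLP+VNS and 21.5 ± 1.19 TPM in CLP. For Tacc3 the main transcript (NM_001004424) stood at 7.37 ± 1.11 and 12.7 ± 1.74 TPM in CLP+VNS and CLP, and for Heatr6 the main transcript (XM_039086617) at 6.34 ± 0.569 and 9.10 ± 0.638 TPM. Kmt5a was split over 9 transcripts, and its most abundant one (XM_017598458) stood at 16.5 ± 9.87 TPM in CLP+VNS and 33.0 ± 7.76 TPM in CLP. CLP+VNS replicate 1 had 0.17 TPM of that transcript and the other 4 CLP+VNS libraries 15.85 to 25.29 TPM, against 23.74 to 41.93 TPM in CLP, so those 4 overlapped with CLP. No test was made on transcripts.

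Promoter windows of 300 bases, from 250 before to 50 after the RefSeq gene start in assembly GRCr8, were found for 3 of the 4 called genes and are shown because these genes were lower together. Capitals mark the searched motifs CCAAT and GGGCGG on either strand, so their complements ATTGG and CCGCCC also appear. The windows are chr14:81289649-81289948 on the minus strand for Tacc3, chr12:37817977-37818276 on the minus strand for Kmt5a and chr10:69132298-69132597 on the plus strand for Heatr6.
Tacc3: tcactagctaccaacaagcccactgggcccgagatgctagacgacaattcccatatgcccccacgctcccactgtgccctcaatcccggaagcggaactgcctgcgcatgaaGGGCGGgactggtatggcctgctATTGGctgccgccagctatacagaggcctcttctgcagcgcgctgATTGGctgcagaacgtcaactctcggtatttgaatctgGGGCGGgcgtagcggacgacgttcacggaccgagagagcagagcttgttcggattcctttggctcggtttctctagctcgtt
Kmt5a: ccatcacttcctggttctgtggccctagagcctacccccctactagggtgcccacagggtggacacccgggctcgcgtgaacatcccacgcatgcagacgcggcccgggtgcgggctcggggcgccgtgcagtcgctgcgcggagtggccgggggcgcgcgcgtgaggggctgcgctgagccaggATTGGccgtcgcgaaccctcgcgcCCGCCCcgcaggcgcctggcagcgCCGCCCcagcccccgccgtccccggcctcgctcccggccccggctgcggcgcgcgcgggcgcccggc
Heatr6: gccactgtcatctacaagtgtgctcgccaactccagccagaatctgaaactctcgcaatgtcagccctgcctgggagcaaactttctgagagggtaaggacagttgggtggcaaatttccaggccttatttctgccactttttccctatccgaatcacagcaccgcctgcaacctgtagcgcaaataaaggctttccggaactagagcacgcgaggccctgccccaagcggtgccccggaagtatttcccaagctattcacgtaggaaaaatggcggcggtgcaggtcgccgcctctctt
The Tacc3 window held CCAAT at 2 positions and GGGCGG at 2 positions, the Kmt5a window held 1 and 2, and the Heatr6 window held neither. Of 33469 RefSeq windows of this length, 37.5% held CCAAT and 33.1% held GGGCGG. The TATA box motif TATAAA was in 14.2% of all windows, the E-box motif CACGTG in 6.42% and the glucocorticoid half-site AGAACA in 20.7%. The CREB motif TGACGTCA was in 1.83% of all windows and the C/EBP and bZIP motif TTATGTAA in 0.893%. The 2 NF-kappaB consensus motifs searched were in 0.111% and 0.0747% of all windows. The 3 windows shown held none of these. The share of G and C was 58.7% in the Tacc3 window, 78.3% in the Kmt5a window and 54.7% in the Heatr6 window, against a median of 51.7%.

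The genes furthest apart between the groups were not called. The 10 highest and 10 lowest log2 changes were taken among genes with an unadjusted p under 0.05, a mean level of 1 CPM or more, a proper gene symbol and groups that did not overlap. At the lower end, Mcpt2, a mast cell protease (the file's symbol; RefSeq names its identifier 29266 Mcpt1), stood at 0.672, 0.359, 1.37, 0.998 and 0.843 CPM in CLP+VNS and at 1.57, 3.25, 2.32, 7.11 and 5.96 CPM in CLP. Its log2 change was -2.24 ± 0.49 with an adjusted p of 0.127, and -2.17 with 0.0461 without CLP+VNS replicate 1; it may share reads with related mast cell proteases. Gfpt2, an enzyme of hexosamine synthesis, had a log2 change of -1.58 ± 0.60 (-1.69 without CLP+VNS replicate 1), at 7.51 to 23.6 CPM in CLP+VNS and 23.6 to 125 CPM in CLP. Of the other 8, Arhgef39, Ube2c, Diaph3, Rrm2 and Cenpe had log2 changes from -1.20 (Arhgef39) to -0.98 (Cenpe). Ube2c and Cenpe encode proteins of cell division, and Rrm2 encodes a subunit of the enzyme that makes the building blocks of DNA. Aldh1a2, which makes retinoic acid, Upk3b and Lrrn4, at -1.04, -0.99 and -0.98, are high in mesothelium, the cell layer that covers the lung.

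At the higher end, Scn3a, a voltage-gated sodium channel of neurons, stood at 1.49, 3.66, 1.08, 2.64 and 1.55 CPM in CLP+VNS and at 0.715, 0.707, 0.724, 0.513 and 0.809 CPM in CLP. The log2 change was 1.58 ± 0.49 (adjusted p 0.199; 1.66 and 0.107 without CLP+VNS replicate 1). Unc5a, a netrin receptor, stood at 4.85 to 7.09 CPM in CLP+VNS and 2.47 to 4.56 CPM in CLP, a log2 change of 0.84 ± 0.18 (adjusted p 0.116). Without CLP+VNS replicate 1 Unc5a was called, at 0.90 (adjusted p 0.0178). The other 8 were Prss35 (1.12), the signalling adaptor Shc2 (0.88), the protocadherin Pcdh20 (0.81), the growth factor Igf2 (0.81), Morn2 (0.69), the glutathione transferase Gstt3 (0.65), Fam126a (0.65) and Spa17 (0.65). Their adjusted p ran from 0.173 (Shc2) to 0.380 (Gstt3), and none passed without CLP+VNS replicate 1 either.

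Cytokine genes that mark acute inflammation did not pass the test. Tnf stood at 11.9, 8.18, 6.56, 12.7 and 17.9 CPM in CLP+VNS and at 11.9, 14.3, 11.7, 13.0 and 11.6 CPM in CLP, with overlapping groups (log2 change -0.13 ± 0.22, adjusted p 0.853; -0.14 without CLP+VNS replicate 1). Il1b had a log2 change of -0.26 ± 0.22 (39.1 to 76.0 CPM in CLP+VNS, 58.1 to 77.6 CPM in CLP), Cxcl1 of -0.70 ± 0.31, Cxcl2 of -0.28 ± 0.28 and Ccl2 of -0.16 ± 0.31. Without CLP+VNS replicate 1 the log2 change was -0.18 for Il1b, -0.69 for Cxcl1, -0.11 for Cxcl2 and 0.03 for Ccl2, the last with its sign turned, and none was called. Cxcl16, a membrane-bound chemokine and scavenger receptor, was the closest to a call, at 86.1, 101, 98.6, 96.5 and 96.1 CPM in CLP+VNS and 119, 116, 114, 134 and 128 CPM in CLP. Its groups did not overlap, and its log2 change of -0.35 ± 0.06 had an adjusted p of 0.0542 (-0.32 and 0.0160 without CLP+VNS replicate 1). Over the 23 tested genes of the cytokine and chemokine list, 5 were lower and 1 was higher at an unadjusted p under 0.05, against 6.67% and 6.35% of all tested genes. The median log2 change of the list was -0.26 (-0.12 without CLP+VNS replicate 1). The 4 lower besides Cxcl1 were Cxcl16, the interleukin 1 receptor antagonist Il1rn (-0.59), Il18 (-0.50) and Cxcl6 (-1.93), the last with 12.4 CPM in CLP replicate 6 and 0.869 to 1.34 CPM in the other CLP libraries.

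Il6 and Il10 had too few counts for the fit and were compared by exact permutation tests of the mean CPM. The estimated counts of Il6 were 3, 2, 2, 3 and 1 in CLP+VNS and 7, 6, 8, 7 and 9 in CLP. The groups did not overlap, and CLP+VNS replicate 1 lay with its own group. Il6 averaged 0.159 ± 0.0624 CPM in CLP+VNS and 0.536 ± 0.0895 CPM in CLP (SD, n = 5 each), with a two-sided exact permutation p of 0.00794, the smallest that 5 against 5 allows (0.0159 adjusted over the 2 genes). Without any single library the exact p was 0.0159, again the smallest possible (0.0317 adjusted). These adjustments span 2 genes, while the fit adjusted over all tested genes. In the edgeR fit with no filter on low counts (19040 genes), Il6 was not among the 4 called genes. Il10 averaged 0.471 ± 0.317 CPM in CLP+VNS and 0.479 ± 0.219 CPM in CLP, with overlapping groups (two-sided exact permutation p = 0.937).

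Genes of NF-kappaB and Toll-like receptor signalling were lower more often than higher. Of 29 tested members, 14 were lower and 0 higher at an unadjusted p under 0.05, against 6.67% and 6.35% of all tested genes. A negative log2 change was found in 24 members, against 48.6% of all tested genes, and the median was -0.20 (-0.21 without CLP+VNS replicate 1). The NF-kappaB subunit Nfkb2 stood at 56.3, 55.3, 56.2, 54.3 and 62.0 CPM in CLP+VNS and at 63.9, 72.5, 63.7, 64.5 and 69.3 CPM in CLP, with no overlap (log2 change -0.23 ± 0.06, adjusted p 0.140). Zc3h12a, an RNase that degrades cytokine mRNAs, stood at -0.36 ± 0.10, the receptor Tlr1 at -0.51 ± 0.14 and the subunit Rel at -0.31 ± 0.09. The NF-kappaB inhibitor Nfkbia stood at 0.13 ± 0.15. Other inhibitor genes of the list had negative changes, Nfkbie at -0.30 ± 0.12, Tnfaip3 at -0.22 ± 0.09, Irak3 at -0.43 ± 0.15 and Nfkbib at -0.05 ± 0.07. Of these, all but Nfkbib had an unadjusted p under 0.05. Without CLP+VNS replicate 1 the log2 change was -0.24 for Nfkb2, -0.39 for Zc3h12a, -0.50 for Tlr1, -0.35 for Rel and 0.10 for Nfkbia. None of the list was called with all libraries, and Nfkbiz and Tlr7 were called lower without CLP+VNS replicate 1.

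Few cholinergic genes were expressed at testable levels, 9 of 19. Chrna7 stood at 1.57, 2.65, 1.95, 3.85 and 2.18 CPM in CLP+VNS and at 1.14, 2.68, 2.68, 1.98 and 0.956 CPM in CLP, with overlapping groups (log2 change 0.37 ± 0.33, adjusted p 0.667; 0.48 without CLP+VNS replicate 1). The kinase gene Jak2 stood at 91.0 to 123 CPM in CLP+VNS and 120 to 158 CPM in CLP (-0.30 ± 0.10, adjusted p 0.209; -0.35 without CLP+VNS replicate 1), and Stat3 at 365 to 415 and 366 to 425 CPM (-0.04 ± 0.07). Chrnb1, a nicotinic receptor subunit known from muscle, stood at -0.35 ± 0.14. Among 18 tested adrenergic and neuropeptide genes, 1 was lower and 6 were higher at an unadjusted p under 0.05, against 6.67% and 6.35% of all tested genes. The median of the list was 0.23 (0.30 without CLP+VNS replicate 1). Calca stood at 0.0746, 4.16, 3.03, 1.85 and 3.86 CPM in CLP+VNS and at 0.0715, 1.70, 0.0724, 0.220 and 0.147 CPM in CLP (2.52 ± 1.07, adjusted p 0.322; 2.83 and 0.161 without CLP+VNS replicate 1). CLP+VNS replicate 1 lay with the lowest CLP libraries, and the other 4 CLP+VNS libraries lay above all CLP libraries. Ramp2, the receptor partner through which adrenomedullin acts on vessels, stood at 0.48 ± 0.13 (adjusted p 0.178) and was called without CLP+VNS replicate 1 (0.58, adjusted p 0.0164). Hmgb1, a nuclear protein that acts as an alarm signal outside cells, stood at 183 to 198 CPM in CLP+VNS and 170 to 180 CPM in CLP (0.14 ± 0.04, adjusted p 0.178; 0.13 without CLP+VNS replicate 1).

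Markers of neutrophils and of antigen-presenting cells had mostly negative changes. In bulk lung RNA, fewer cells of a type and less RNA per cell cannot be told apart. All 19 tested neutrophil markers had a negative log2 change, against 48.6% of all tested genes. Of the 19 markers, 8 were lower at an unadjusted p under 0.05, against 6.67% of all tested genes. The neutrophil markers had a median of -0.48 (-0.63 without CLP+VNS replicate 1). Their summed level was 2304, 3585 and 6155 CPM (lowest, median, highest) in CLP+VNS and 4737, 4866 and 6640 CPM in CLP, so the groups overlapped; CLP+VNS replicate 1 was at 4788 CPM. The calprotectin genes S100a8 and S100a9 had log2 changes of -0.35 ± 0.30 and -0.44 ± 0.27 and did not pass. The oxidase subunit gene Ncf1 stood at -0.37 ± 0.10, Selplg, a ligand of selectins, at -0.46 ± 0.14 and the chemokine receptor Cxcr1 at -0.81 ± 0.31. Selplg was the one neutrophil marker called without CLP+VNS replicate 1, at -0.59 (adjusted p 0.0347).

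Of 17 tested dendritic cell and MHC class II genes, 8 were lower and 0 higher at an unadjusted p under 0.05, against 6.67% and 6.35% of all tested genes. The median of the list was -0.26 (-0.34 without CLP+VNS replicate 1). The class II chain gene RT1-Da stood at 302, 284, 339, 263 and 312 CPM in CLP+VNS and at 367, 410, 474, 459 and 474 CPM in CLP. The groups did not overlap, and the log2 change was -0.54 ± 0.10 (adjusted p 0.0587; -0.55 and 0.0165 without CLP+VNS replicate 1). The invariant chain gene Cd74, whose product guides class II molecules, stood at -0.42 ± 0.10, RT1-DMb at -0.54 ± 0.13 and RT1-Db1 at -0.51 ± 0.12, all called without CLP+VNS replicate 1. The RT1 genes are closely related and may share reads. The summed level of the list was 1582, 1855 and 2084 CPM in CLP+VNS and 2150, 2537 and 2621 CPM in CLP, with no overlap, and CLP+VNS replicate 1, at 1888 CPM, lay with its own group. Of 18 monocyte and macrophage markers 6 were lower and 0 higher at an unadjusted p under 0.05, against 6.67% and 6.35% of all tested genes. The median of these markers was -0.22 (-0.21 without CLP+VNS replicate 1). The 6 lower markers included Itgam (-0.65), Adgre1 (-0.58), Cd68 (-0.48) and Csf1r (-0.30). The other way, Marco stood at 0.89 ± 1.20 and C1qa, C1qb, C1qc, Ms4a7 and Cd163 at 0.01 to 0.10. The summed level was 13299.5, 15251 and 18818 CPM in CLP+VNS and 14417, 17636 and 18664 CPM in CLP, so the groups overlapped, and the highest value was that of CLP+VNS replicate 1. Cd68, a lysosomal protein of macrophages, stood at 67.8 CPM in CLP+VNS replicate 1 and 31.5 to 41.3 CPM in the other CLP+VNS libraries, against 53.8 to 68.7 CPM in CLP, and was called without that library (-0.69, adjusted p 0.0114). T cell markers had a median of 0.14 (0.25 without CLP+VNS replicate 1). Of 15 T cell markers 6 had negative changes, against 48.6% of all tested genes, and the 6 included Cd4 (-0.14) and Cd8a (-0.20). Tcf7 and Lef1, transcription factors of naive T cells, stood at 0.45 and 0.70 with all libraries, not called, and were called higher without CLP+VNS replicate 1, at 0.57 (adjusted p 0.0258) and 0.89 (adjusted p 0.0451).

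Endothelial markers were higher more often than lower. Of 22 tested, 16 were higher and 0 lower at an unadjusted p under 0.05, against 6.35% and 6.67% of all tested genes. The median of the list was 0.30 (0.35 without CLP+VNS replicate 1), and no member was called with all libraries. Aplnr, the apelin receptor, stood at 94.8, 135, 116, 120 and 150 CPM in CLP+VNS and at 90.3, 85.3, 80.9, 58.8 and 82.0 CPM in CLP, with no overlap (log2 change 0.63 ± 0.13, adjusted p 0.116). Kdr, the main VEGF receptor, stood at 185, 291, 298, 286 and 316 CPM in CLP+VNS and at 258, 191, 204, 148 and 178 CPM in CLP (0.49 ± 0.15, adjusted p 0.191). The first CLP+VNS value, that of replicate 1, lay within the CLP range, and the other 4 lay above it. Emcn, a sialomucin of capillaries and veins, stood at 0.55 ± 0.15. Without CLP+VNS replicate 1, Aplnr, Kdr, Emcn, Pecam1, Cdh5, Eng and Erg rose, with adjusted p from 0.0114 (Aplnr) to 0.0473 (Cdh5). The summed endothelial level was 6543, 8172 and 9417 CPM in CLP+VNS and 5895, 6654 and 6767 CPM in CLP; the lowest CLP+VNS value was that of replicate 1.

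Of 12 smooth muscle and pericyte markers 5 had negative changes, against 48.6% of all tested genes. The median of these markers was 0.05 (0.16 without CLP+VNS replicate 1). Their summed level was 595 to 938 CPM in CLP+VNS, lowest in replicate 1, and 616 to 931 CPM in CLP, so the groups overlapped. Pdgfrb, the pericyte receptor for platelet-derived growth factor, stood at 69.5, 101, 89.2, 80.0 and 95.5 CPM in CLP+VNS and at 64.3, 68.4, 69.4, 66.0 and 62.7 CPM in CLP (0.40 ± 0.09, adjusted p 0.127). It and Notch3 (0.30 ± 0.09) were the 2 members at an unadjusted p under 0.05, and both rose without CLP+VNS replicate 1, at 0.46 (adjusted p 0.0114) and 0.38 (adjusted p 0.0179). The ciliary genes Tppp3 (0.31), Tekt1 (0.59) and Sntn (0.84) were the 3 ciliated airway markers higher at an unadjusted p under 0.05, against 6.35% of all tested genes. None of the 12 tested ciliated airway markers had a negative change, against 48.6% of all tested genes. Their median was 0.41 (0.49 without CLP+VNS replicate 1), and their summed level was 551 CPM in CLP+VNS replicate 3 and 352 to 389 CPM in the other CLP+VNS libraries, against 296 to 359 CPM in CLP. The 6 tested secretory airway markers had a median of 0.59 (0.75 without CLP+VNS replicate 1), and their summed level was 8867 CPM in CLP+VNS replicate 3 and 4930 to 6630 CPM in the other CLP+VNS libraries, against 4164 to 6092 CPM in CLP. No ciliated or secretory marker was called with all libraries or without CLP+VNS replicate 1. Among the secretory markers was Scgb3a1, a secretoglobin, at 6.10 CPM in CLP+VNS replicate 3 and at most 1.19 CPM in the other 9 libraries. Calca lay at the same end of the first principal component as Scgb3a1, Cyp2a3 and Krt15. How much airway each tissue piece held was not recorded in the labels, and its part in these values was not tested. The erythroid genes Hbb and Hba-a1 stood at 0.72 ± 0.24 and 0.59 ± 0.25, and the near-identical globin copies make these values uncertain.

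All 8 mesothelial markers had a negative change, against 48.6% of all tested genes. Of the 8 markers, 5 were lower at an unadjusted p under 0.05, against 6.67% of all tested genes. No mesothelial marker was called with all libraries or without CLP+VNS replicate 1. The median was -0.82 (-0.90 without CLP+VNS replicate 1). Upk3b, a uroplakin, stood at 39.2, 45.5, 37.3, 47.0 and 23.0 CPM in CLP+VNS and at 63.1, 85.6, 60.6, 77.8 and 95.1 CPM in CLP, with no overlap (log2 change -0.99 ± 0.35, adjusted p 0.238). The keratin genes Krt18 and Krt8 stood at -0.52 and -0.30. The summed mesothelial level was 556, 744 and 781 CPM in CLP+VNS, highest in replicate 1, and 921, 1009 and 1300 CPM in CLP, with no overlap. In the sham-operated lungs the list ran from 762 to 986 CPM in Sham+VNS and 625 to 1593 CPM in Sham. How much mesothelium each tissue piece held was not recorded in the labels, and its part in these values was not tested. Of 9 mast cell markers 8 had negative changes, against 48.6% of all tested genes. The 8 included Mcpt2, Tpsb2 (-1.12) and Cpa3 (-1.41), while Kit, which other lung cells also express, stood at 0.43. The median of the list was -0.94 (-1.32 without CLP+VNS replicate 1), while its summed level, 216 to 292 CPM in CLP+VNS and 146 to 267 CPM in CLP, overlapped.

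Cell cycle genes had mostly negative changes. Of 20 tested, 13 were lower and 0 higher at an unadjusted p under 0.05, against 6.67% and 6.35% of all tested genes. The median of the list was -0.70 (-0.68 without CLP+VNS replicate 1), and no member was called in either fit. Mki67, a marker of dividing cells, stood at 19.3, 24.4, 17.4, 18.2 and 19.0 CPM in CLP+VNS and at 22.8, 22.1, 43.7, 39.6 and 42.6 CPM in CLP (log2 change -0.80 ± 0.26, adjusted p 0.205). CLP replicates 1 and 3 lay within the CLP+VNS range and the other 3 CLP libraries above it. Tpx2, a spindle assembly factor, showed the same split in CLP, with 6.36 and 5.86 CPM in replicates 1 and 3 and 14.3, 13.7 and 12.3 CPM in the others, and stood at 3.65 to 7.32 CPM in CLP+VNS. Cyclin E1 (Ccne1, -1.15 ± 0.35) did not overlap between groups, and Cdc20 stood at -0.82 ± 0.26. The called spindle gene Tacc3 is not a member of this list. Its lowest CLP value, 18.8 CPM, was in CLP replicate 1, but CLP replicate 3 was its highest CLP library, so Tacc3 did not show this split.

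Glycolysis, oxidative stress and complement genes held further members that were not called with all libraries and were called lower without CLP+VNS replicate 1. Pyruvate kinase (Pkm) stood at 504, 421, 370, 433 and 498 CPM in CLP+VNS and at 512, 580, 550, 524 and 543 CPM in CLP (-0.28 ± 0.07, adjusted p 0.127), and it, Gapdh (-0.29) and Pgk1 (-0.31) fell without CLP+VNS replicate 1, at adjusted p of 0.0164, 0.0121 and 0.0432. The mitochondrial superoxide dismutase Sod2 stood at 495, 317, 367, 515 and 520 CPM in CLP+VNS and at 548, 689, 578, 643 and 709 CPM in CLP, with no overlap (-0.52 ± 0.12, adjusted p 0.127; -0.56 and 0.0346 without CLP+VNS replicate 1). Gpx1 (-0.34), Cfp, C5ar1 and Cfb of the complement list (-0.39, -0.41 and -0.65), Nlrp3 of the inflammasome (-0.57), the annexin gene Anxa2 (-0.26) and Timp1, an inhibitor of matrix metalloproteinases (-0.85), were likewise not called with all libraries and were called lower without that library. All 15 heat shock genes had negative changes, against 48.6% of all tested genes, and 5 were lower at an unadjusted p under 0.05, against 6.67%. The median of the list was -0.20 (-0.24 without CLP+VNS replicate 1). Hspa8 stood at -0.43 ± 0.13, and CLP replicates 5 and 6 were its 2 highest libraries, at 2765 and 2662 CPM. In the lists of alveolar type 1 cells, natural killer cells, B and plasma cells, the unfolded protein response, glucocorticoid response and oxidative phosphorylation, 0 members passed an unadjusted p of 0.05. Of all tested genes 6.67% passed as lower and 6.35% as higher, and these lists held only 10 to 19 tested members. Their medians lay between -0.38 (B and plasma cells) and 0.05. In the same order, 8 of 14, 8 of 10, 11 of 12, 14 of 18, 6 of 16 and 12 of 19 members had negative changes, against 48.6% of all tested genes. The immediate early gene Fos (0.02 ± 0.16) and the clock gene Per1 (0.08 ± 0.14) also did not pass.

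**Figure D3:**
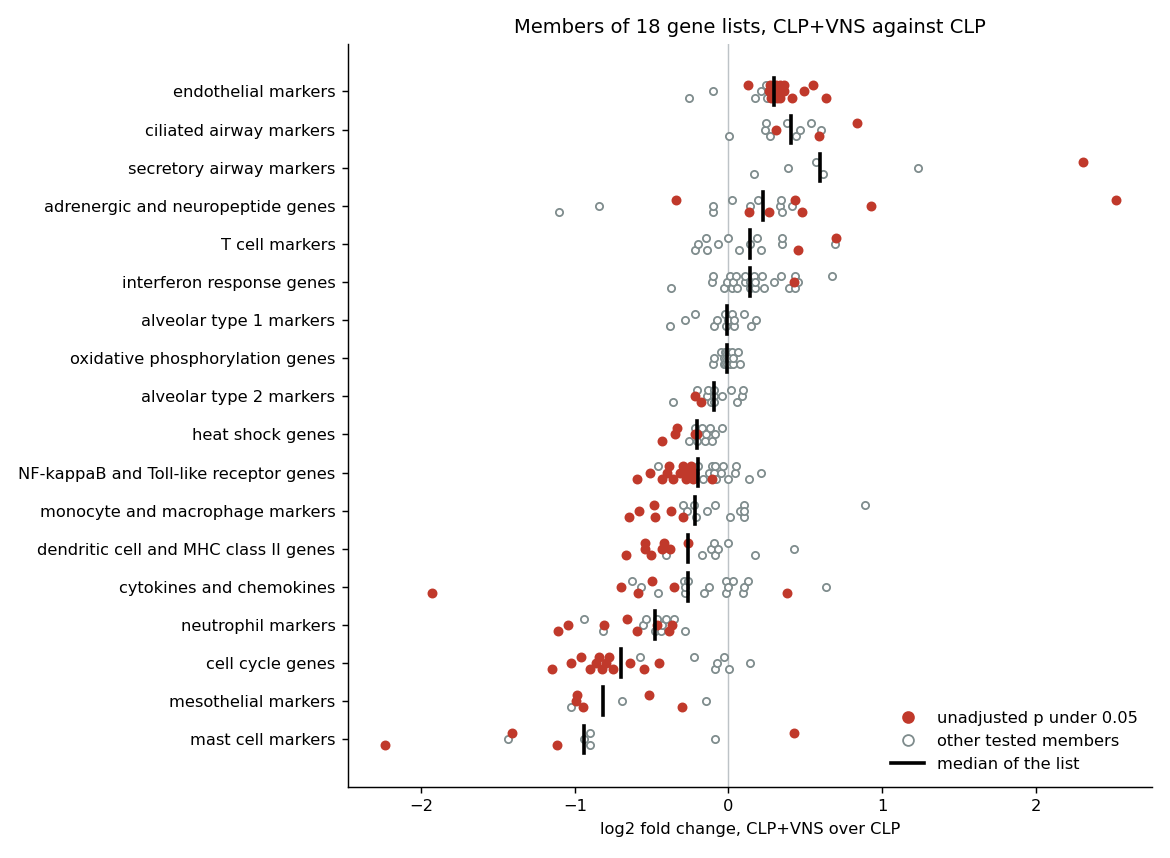
Log2 fold change of CLP+VNS over CLP (x axis) for each tested member of 18 gene lists (rows). Red points have an unadjusted p under 0.05, open points do not, and the black bar is the list's median. Endothelial markers (median 0.30) lie to the right, and cell cycle (-0.70), mesothelial (-0.82) and mast cell (-0.94) lists lie to the left.

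Leaving out CLP+VNS replicate 1 raised the number of called genes to 277, 149 lower (1.00% of 14872 tested) and 128 higher (0.861%) in CLP+VNS, the 4 genes above among them. Of these, 145 lower and 127 higher genes had an unadjusted p under 0.05 with all libraries, against 6.67% and 6.35% of all tested genes. The fit with all libraries holds every library that chose these genes, so this overlap follows largely from the choice. The absolute log2 changes of the 277 genes were small, with a median of 0.49 among the lower and 0.46 among the higher genes. Of the lower and higher genes, 10 and 9 reached a 2-fold difference. The genes named next were chosen after their values were seen, as the lowest p in that fit. Igsf7, an immunoglobulin superfamily member, stood at 53.3, 16.2, 30.1, 24.1 and 22.6 CPM in CLP+VNS, the first value being replicate 1, and at 41.3, 46.6, 47.2, 56.2 and 63.0 CPM in CLP. Its log2 change was -1.13 without replicate 1 (adjusted p 0.00510) and -0.80 with it (0.178). Itgb2, the β2 integrin chain of leukocytes, stood at 317, 205, 164, 199 and 233 CPM in CLP+VNS and 305, 331, 336, 320 and 305 CPM in CLP, and its partner Itgal was also called (-0.68 and -0.58 without replicate 1). Other leukocyte genes of actin and adhesion were Parvg (-0.69) and Apbb1ip (-0.54), and further lower genes were Smpdl3a (-0.84), Blvra (-0.65), Col16a1 (-0.57), Myo5a (-0.54) and Sh3bp2 (-0.52).

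Among the higher genes with the lowest p in that fit, Tbx2, a transcription factor known from lung mesenchyme, stood at 50.6, 101, 112, 96.8 and 116 CPM in CLP+VNS and at 84.3, 66.7, 71.2, 64.8 and 56.4 CPM in CLP; replicate 1 of CLP+VNS was the lowest of all 10 libraries. Its log2 change was 0.63 without that library (adjusted p 0.00510) and 0.47 with it (0.215). The transcription factor genes Tbx3 (0.51), Tbx5 (0.58) and Foxf2 (0.68) were called as well. So were Adgra2 (0.46), a receptor needed for vessel growth in the brain, Egfl7 (0.49), secreted by endothelium, and Mtss2 (0.45), Stard9 (0.38), Fam13c (0.63), Myo6 (0.42) and Pgpep1 (0.34). In CLP against Sham, which shares the CLP libraries, Tbx2 had a log2 change of -1.26, Foxf2 of -1.14 and Adgra2 of -1.13.

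The 277 genes were chosen by the difference between the other 9 CLP-operated libraries, and CLP+VNS replicate 1 had no part in the choice. The sham-operated libraries entered the filter, the scaling and the common estimate of the spread in that fit. Its mean position relative to the CLP mean was -0.07 log2 units over the 149 lower genes and -0.03 over the 128 higher genes. The other CLP+VNS libraries, whose values chose the genes, lay at -0.58 to -0.48 and at 0.49 to 0.59. CLP+VNS replicate 1 was within the range of the CLP libraries on 100 of 149 and 83 of 128 genes, and beyond all of them on the called side on 39 and 19. It lay on the opposite side of all CLP libraries on 10 and 26.

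**Figure D4:**
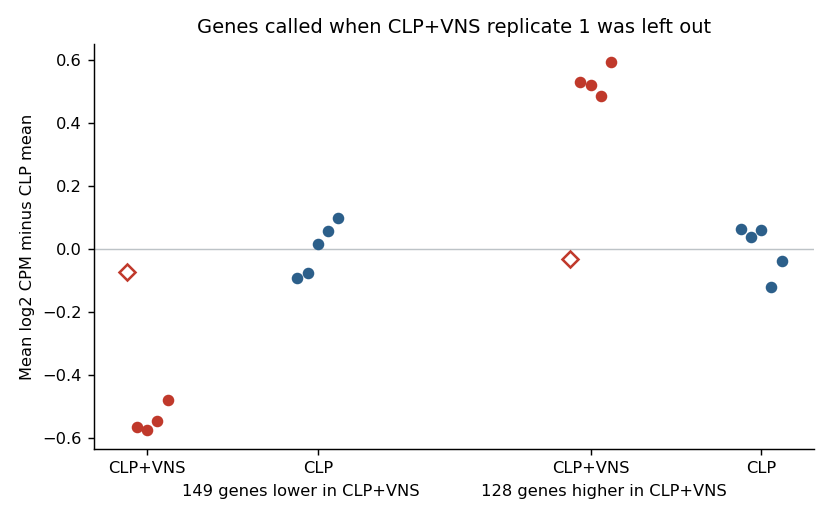
Mean log2 CPM of each library minus the CLP mean (y axis), over the 149 lower genes (left) and the 128 higher genes (right) called without CLP+VNS replicate 1. Points are libraries, red for CLP+VNS and blue for CLP, and the open diamond is CLP+VNS replicate 1. That library lies at -0.07 and -0.03, among the CLP libraries; the separation of the other points follows from how the genes were chosen.

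In 14 of the 46 gene lists CLP+VNS replicate 1 stood above, or below, all 4 other CLP+VNS libraries on most of the tested members. The same count was not made for other libraries. In mean log2 CPM, CLP+VNS replicate 3 was the highest of its group for secretory airway markers (5.72) and the lowest for acute phase genes (4.56). CLP+VNS replicate 1 lay above all 4 other CLP+VNS libraries on 14 of 20 acute phase and host defence genes, 13 of 18 unfolded protein response genes, 10 of 15 heat shock genes, 10 of 19 hypoxia and glycolysis genes, 8 of 15 alveolar fluid transport genes, 6 of 11 alveolar macrophage markers, 5 of 9 mast cell markers and 4 of 6 adipose markers, against 3625 of all 14794 tested genes. It lay below all 4 on 15 of 22 endothelial markers, 11 of 12 smooth muscle and pericyte markers, 14 of 27 interferon response genes, 10 of 18 adrenergic and neuropeptide genes, 8 of 15 T cell markers and 5 of 6 secretory airway markers, against 3675 of all tested genes. The summed acute phase level was 4874 CPM in that library and 2207 to 3771 CPM in the other CLP+VNS libraries, against 4191, 4251 and 4707 CPM (lowest, median, highest) in CLP. Lbp, which binds bacterial lipopolysaccharide, stood at 245, 86.1, 192, 184 and 111 CPM in CLP+VNS, the first being replicate 1, and at 210 to 297 CPM in CLP. Ptx3, a pentraxin made at sites of inflammation, stood at 93.0, 12.9, 18.7, 68.0 and 43.7 CPM in CLP+VNS and 46.0 to 295 CPM in CLP.

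**Figure D5:**
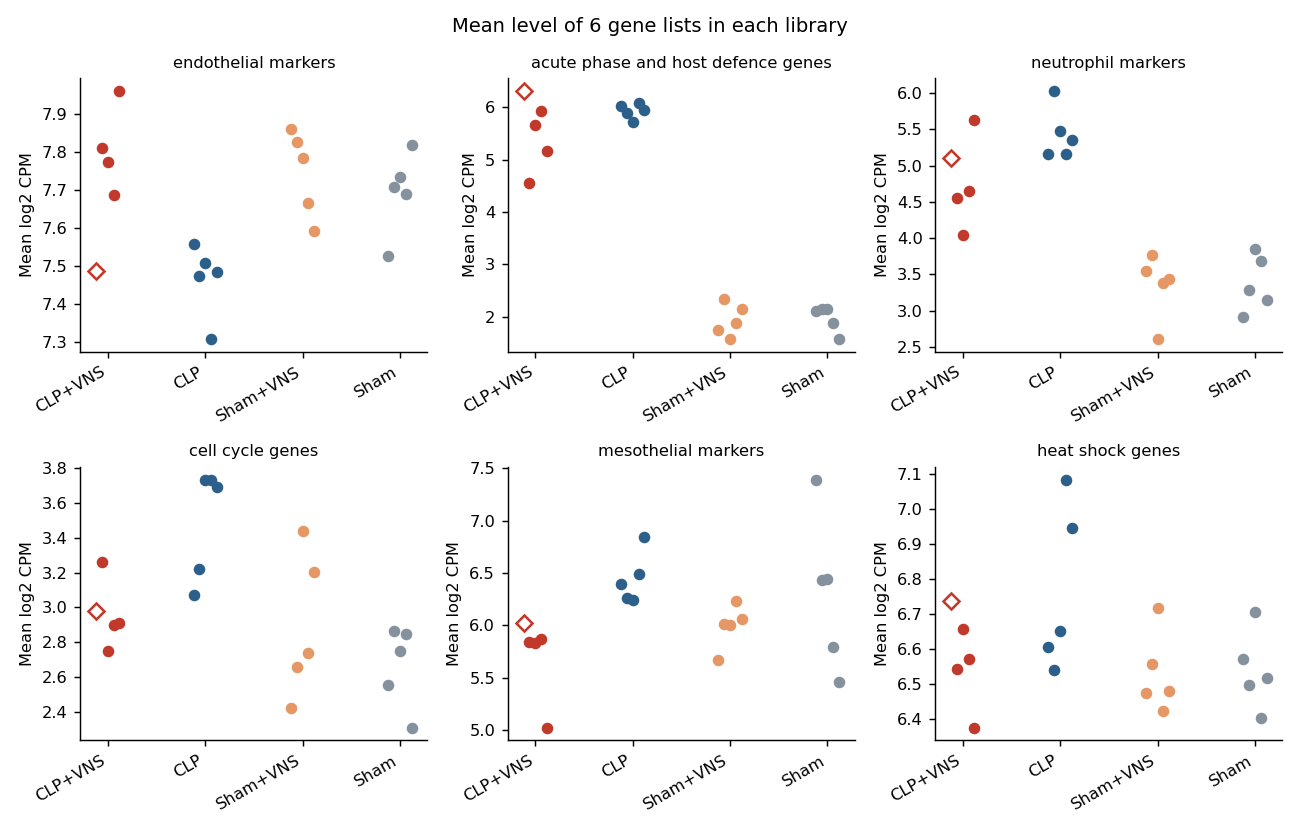
Mean log2 CPM (y axis) of the tested members of 6 gene lists in each library, by group. Points are libraries and the open diamond is CLP+VNS replicate 1, which is the lowest CLP+VNS library for endothelial markers and the highest for acute phase genes. The other CLP+VNS libraries lie above all CLP libraries for endothelial markers, and all CLP+VNS libraries lie below all CLP libraries for mesothelial markers.

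The single genes with the widest gap between CLP+VNS replicate 1 and the other 4 were chosen by that gap, and their values are a description. Above the others were Serpina3n, an acute phase antiprotease, at 412 CPM (19.0 to 49.3 CPM in the other 4, 24.0 to 75.3 CPM in CLP), Retnla, a resistin-like protein of type 2 inflammation, at 29.5 CPM (1.66 to 6.88 CPM, 1.84 to 33.4 CPM in CLP), Ptprn at 42.0 CPM and the keratin Krt81 at 5.19 CPM. Dsg3, a desmosomal cadherin, was at 27.1 CPM there and at most 0.0702 CPM in the other 4 CLP+VNS libraries; CLP replicate 1 had 26.2 CPM and the other CLP libraries at most 0.141 CPM. The zinc finger gene Zfp472 was at 58.5 CPM there, with 60.4 CPM in CLP replicate 3 and 8.54 to 10.7 CPM in the other 8 libraries. Below the others were Calca, described above, Aldh1a7 (2.05 CPM, 12.4 to 31.5 CPM in the other 4), the cytochrome P450 gene Cyp2a3 (3.88 CPM, 18.3 to 119 CPM), the retinoid receptor Rxrg (0.522 CPM, 2.58 to 3.72 CPM) and Dscaml1 (0.298 CPM, 1.44 to 1.90 CPM). Rpl30 was listed at 0 in that library and at 110 to 239 CPM in the other 4, and at 0.0926 CPM in CLP replicate 6; retained copies of this ribosomal protein gene make its values uncertain.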

How the data were processed

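The members and the gene lists were chosen with earlier results of these data known. Per the labels' protocols, RNA was extracted with TRIzol, enriched for poly(A), made into strand-specific libraries and sequenced in pairs; per the submitters' processing notes the build was mRatBN7.2, and no source used here gives the aligner, the counter or the handling of shared reads. The authors deposited estimated counts per gene (19060 genes, 91.5% of values whole) and TPM values per gene and transcript. The estimated counts were rounded. Genes were kept with edgeR's filterByExpr (minimum count 10), scaled with TMM and fitted with edgeR's quasi-likelihood model (version 4.0.16, R 4.3.3; robust), with 4 group means over all 20 libraries which leaves 16 residual degrees of freedom; the common coefficient of biological variation was 0.161. Tests were two-sided and adjusted by Benjamini-Hochberg over all tested genes, with a call at 0.05. The model was also run on simulated counts in which all genes had the same biological variation and no library was set apart. That run cannot show how the model handles a library such as CLP+VNS replicate 1. Log2 CPM per library used a prior count of 2.

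Of 46 lists with 722 symbols, 715 genes were in the table (7 by another symbol) and 665 were tested; lists were described by counts and medians, with no set test. Named genes were all called genes, the 10 highest and 10 lowest changes under the limits given in the report, up to 4 members a list by lowest p, fixed inflammation and lung genes, and the 6 genes with the widest gap above and below the rest in CLP+VNS replicate 1. DESeq2 (1.42.0), limma-voom with and without sample weights (limma 3.58.1), limma on log2(TPM + 0.1), other scalings and filters, a replicate block and leaving out single libraries were tried. A gene that the naming rule selects is not reported here. Gene names, types and promoter sequences are from RefSeq (GRCr8); 18800 identifiers matched. At these depths 1 count of Il6 in CLP+VNS replicate 11 was 0.0702 CPM, which limits what can be seen of low genes.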

Additional observations from a re-analysis of the deposited data

Results flagged for a closer look

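Of 264 groups of 5 libraries compared for 132 genes described above, 37 held a library set far from the other 4, where the gap to its nearest neighbour as a share of the whole range passed the critical value of Dixon's test. For normal values of genes not chosen by their spread, chance flags about 1 in 20 groups. In CLP+VNS replicate 1, 7 genes had been chosen for a gap there, so their flags follow from the choice: Dsg3 (27.1 CPM), Serpina3n (412 CPM), Zfp472 (58.5 CPM), Retnla (29.5 CPM), Krt81 (5.19 CPM) and Ptprn (42.0 CPM) were highest there, and Dscaml1 (0.298 CPM) was lowest. Among genes chosen by their p without that library, Smpdl3a (143 CPM) and Parvg (58.8 CPM) were highest there and Adgra2 (61.6 CPM), Mtss2 (60.5 CPM) and Foxf2 (10.7 CPM) lowest. That choice favours genes on which the other 4 libraries lie close together, so these flags are not independent of it. Cd68 (67.8 CPM) and Gpx1 (247 CPM) were also highest there, and Kdr (185 CPM) was lowest.

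In replicate 3 of CLP+VNS, Spa17 (15.2 CPM), Cxcl1 (48.3 CPM), Cyp2a3 (119 CPM), Tekt1 (15.5 CPM), Scgb3a1 (6.10 CPM) and Mki67 (24.4 CPM) were set above the other 4 libraries of that group, and in replicate 11 Nfkb2 (62.0 CPM) and Tlr1 (15.7 CPM). In CLP, replicate 6 was highest for Cxcl1 (89.8 CPM), Cxcl6 (12.4 CPM), Krt18 (243 CPM) and Ptx3 (295 CPM). CLP replicate 3 was highest for Il1b (77.6 CPM), Calca (1.70 CPM), Selplg (92.9 CPM), Cyp2a3 (20.0 CPM) and Zfp472 (60.4 CPM) and lowest for Adgre1 (47.3 CPM). CLP replicate 1 was highest for Dsg3 (26.2 CPM), and replicate 5 was lowest for Morn2 (0.733 CPM), Fam126a (14.4 CPM) and Kit (91.5 CPM). No gene passed the test of the difference between the stimulation effects in CLP-operated and sham-operated rats.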

How the results depend on the processing

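The number of called genes depended on the fit. Against 4 calls, edgeR made 0 with library totals only, 0 with only the 10 CLP-operated libraries, and limma made 0 on log2(TPM + 0.1). DESeq2 made 144 (89 lower, 55 higher), of which 106 were among the 277 called by edgeR without CLP+VNS replicate 1. Limma-voom with sample quality weights made 175 (118 lower, 57 higher), of which 137 were. Chosen after seeing the data, DESeq2 and limma-voom with weights, both without CLP+VNS replicate 1, made 698 and 661 calls. Limma-voom with weights then had 3111 genes at an unadjusted p under 0.05, against 2691 with all libraries. The edgeR fit with all libraries had 1927. Also chosen after seeing the data, edgeR without Sham replicate 1 made 1 call. Leaving out single libraries gave 0 (CLP+VNS replicate 3, 5 or 8, CLP replicate 4, 5 or 6), 1 (CLP+VNS replicate 11 or CLP replicate 3), 4 (CLP replicate 1) or 277 calls (CLP+VNS replicate 1). The count stayed at 4 under the other scaling, both other filters and limma-voom without weights. The cause of these differences was not tested.

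Directions changed less. The sign of the log2 change was kept in 2702 of 2714 comparisons of a named gene with its main value, and the other 12 belonged to Tnf, Ccl2, Fos and Per1. With single libraries left out, the log2 change ran from -0.35 to 0.015 for Tnf, from -0.40 to 0.026 for Ccl2 and from -0.076 to 0.10 for Fos; without CLP+VNS replicate 1, DESeq2 gave 0.031 for Ccl2 and -0.027 for Fos, and limma-voom with weights gave 0.00 for Fos (-0.000528). The Il10 difference ran from -0.0919 to 0.0737 CPM (-0.0919 without CLP replicate 1, 0.0737 without CLP+VNS replicate 5). Of 414 list medians compared, 1 moved by more than the spread of the list's mean level between libraries, that of the cytokines and chemokines to -0.12 with DESeq2 without CLP+VNS replicate 1. The number of genes on which CLP+VNS replicate 1 stood apart was 34 with a minimum mean of 5 CPM and 13 with a gap of 2 log2 units, in place of 76.

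With the replicate block edgeR called 0 genes, 929 genes were at an unadjusted p under 0.05, and the log2 changes of Fos and Per1 were -0.049 and -0.072. The block joined all libraries of equal number, sham-operated ones included. CLP replicate 6 and CLP+VNS replicates 8 and 11 share their number with no other library, so they added nothing to the comparison in that fit. It therefore rested on fewer libraries than the main fit. The labels do not say that equal numbers pair the animals. The deviations of same-numbered CLP+VNS and CLP libraries from their group means correlated at 0.0255, 0.178 and 0.125 for numbers 1, 3 and 5. For numbers 3 and 5 the same-numbered library was the best match in the other group, in both directions. For number 1 it was not. Whether equal numbers pair the animals was not tested.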
